A study of Saccharomyces cerevisiae with 10 samples.

Results

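The 10 genes described here encode enzymes of purine synthesis and of the one-carbon pathway that feeds it. They were taken by identifier from a table of 6600 genes of *Saccharomyces cerevisiae*, baker's yeast. 7 of them act in the synthesis of IMP, the first complete purine nucleotide (*ADE1*, YAR015W; *ADE2*, YOR128C; *ADE4*, YMR300C; *ADE5,7*, YGL234W; *ADE6*, YGR061C; *ADE13*, YLR359W; *ADE17*, YMR120C). The other 3 supply or carry the one-carbon units (*ADE3*, YGR204W; *SHM2*, YLR058C; *MTD1*, YKR080W). All 10 had a mean above 10 normalized counts and were tested. In R64 coordinates their single coding exons lie at chrI:169375-170295 (*ADE1*), chrXV:564476-566191 (*ADE2*), chrXIII:865559-867091 (*ADE4*), chrVII:56482-58890 (*ADE5,7*), chrVII:611889-615965 (*ADE6*), chrXII:844282-845730 (*ADE13*), chrXIII:507502-509280 (*ADE17*), chrVII:905934-908774 (*ADE3*), chrXII:257992-259401 (*SHM2*) and chrXI:590395-591357 (*MTD1*).

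Messenger RNA was sequenced from 5 strains of the S288C background, each as 2 biological replicates grown as separate 5 mL fermentations of supplemented white grape juice. 4 strains are integrants of a *MED15* allele: LAB, whose genotype is labelled WT, WY7, WY15 and WY23. The remaining strain is labelled med15 deletion. Med15 belongs to the tail of Mediator, through which activators reach RNA polymerase II. Harvest came when 35% weight loss was reached, near 37 h for the *MED15* strains but at 48 h for the deletion, so that absence of *MED15* and the later harvest cannot be told apart. The libraries hold 22.7 to 29.3 M gene-assigned reads. Normalized counts of *MED15* itself were 8238 to 10958 in the 8 *MED15* libraries but 12.1 and 11.9 without the gene. *URA3*, a common selection marker, had 0 reads in those 8 libraries and 3971 and 4037 in the deletion, a second genetic difference that the labels do not mention. Normalized counts are relative to the other messages of a library: fewer cells and less RNA per cell cannot be told apart from them.

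Yeast builds the purine ring step by step on phosphoribosyl pyrophosphate (PRPP), and formyl groups carried by tetrahydrofolate supply ring carbons. *ADE4* encodes the enzyme of the committed first step, whose activity is held down by purine nucleotides. Transcription of the pathway is known to be raised when purines run short by the activator Bas1 acting with Pho2. Bas1 recognises the hexamer TGACTC, which is also part of the site of Gcn4, the activator of amino acid synthesis genes.

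The upstream sequences of the 10 genes are given before their expression values. In the 300 bases before the annotated start codon, TGACTC was present on either strand in 9 of the 10 genes, against 7.77% of 6001 protein-coding genes with such a window (466 genes). 5 of the 10 genes held at least 2 copies, against 0.65% of all genes. *ADE4* was the gene with none in this window; its nearest copy begins 357 bases before the start codon, and with a window of 600 bases all 10 genes hold the hexamer, against 15.3% of all genes. The longer Gcn4 form TGACTCA, searched on either strand, was present in 1 of the 10 genes (*MTD1*) and in 2.62% of all genes. A match describes letters and is not evidence of binding, and the comparison of *ADE4* with the others was made after its values were seen. Windows of 4 genes follow, read 5′ to 3′ on the coding strand from the R64 genome, with the hexamer in capitals (GAGTCA where it lies on the opposite strand). *ADE4* (chrXIII:867092-867391, minus strand) is shown as the window with no copy, *ADE1* (chrI:169075-169374, plus strand) for its neighbouring copies on opposite strands, *SHM2* (chrXII:259402-259701, minus strand) for a pair in the same direction, and *MTD1* (chrXI:590095-590394, plus strand) for the longer Gcn4 form.
ADE4: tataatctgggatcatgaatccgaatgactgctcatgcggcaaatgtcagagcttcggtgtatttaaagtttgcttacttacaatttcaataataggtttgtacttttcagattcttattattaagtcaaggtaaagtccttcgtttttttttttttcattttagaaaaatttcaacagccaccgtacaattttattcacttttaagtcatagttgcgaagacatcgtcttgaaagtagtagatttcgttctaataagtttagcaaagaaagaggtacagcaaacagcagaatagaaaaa
ADE1: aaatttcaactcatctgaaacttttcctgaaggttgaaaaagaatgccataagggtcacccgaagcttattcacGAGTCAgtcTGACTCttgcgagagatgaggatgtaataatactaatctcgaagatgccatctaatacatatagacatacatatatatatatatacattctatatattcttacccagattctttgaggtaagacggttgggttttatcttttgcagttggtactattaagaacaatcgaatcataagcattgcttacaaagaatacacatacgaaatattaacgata
SHM2: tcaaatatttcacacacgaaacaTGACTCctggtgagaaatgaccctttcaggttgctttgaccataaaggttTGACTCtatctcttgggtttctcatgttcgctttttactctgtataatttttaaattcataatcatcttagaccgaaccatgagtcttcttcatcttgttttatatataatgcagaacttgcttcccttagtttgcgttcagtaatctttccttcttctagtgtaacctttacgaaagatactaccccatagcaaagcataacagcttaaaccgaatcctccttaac
MTD1: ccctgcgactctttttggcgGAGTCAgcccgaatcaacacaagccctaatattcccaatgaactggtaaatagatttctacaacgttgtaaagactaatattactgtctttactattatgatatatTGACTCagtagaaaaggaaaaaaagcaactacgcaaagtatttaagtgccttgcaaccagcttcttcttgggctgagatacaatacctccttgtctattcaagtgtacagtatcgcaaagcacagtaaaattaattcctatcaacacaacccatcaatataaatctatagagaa

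**Figure D1:**
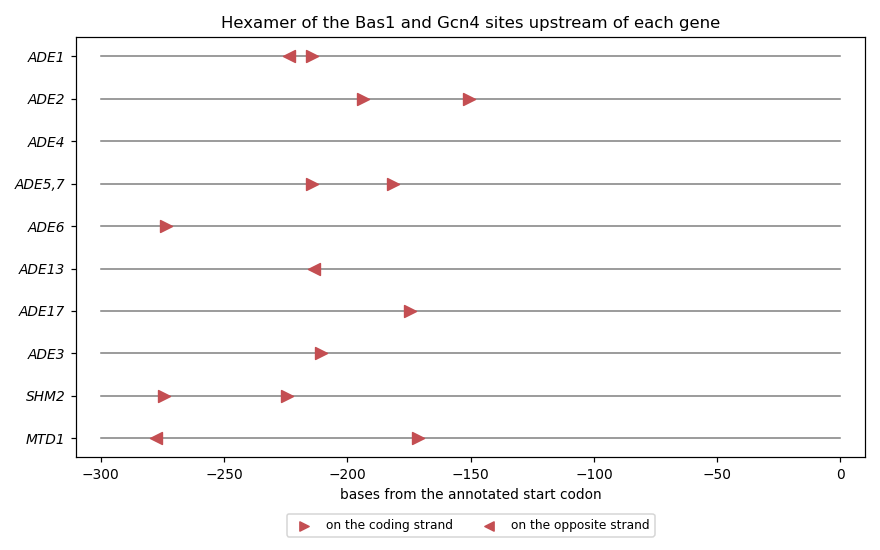
Positions of the hexamer in the 300 bases before each start codon; the horizontal axis is the distance in bases from the start codon, and each arrowhead is 1 copy pointing along its strand. 14 copies lie between 153 and 280 bases before the start codons of 9 genes, and the *ADE4* line is empty.

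In every strain the pathway was expressed at moderate to high levels, and the one-carbon genes *ADE3* and *SHM2* were the most abundant of the 10 per length. Per kilobase of coding sequence, the mean over the 8 *MED15* libraries was 7566 normalized counts for *ADE3*, which encodes the trifunctional enzyme that interconverts one-carbon units on tetrahydrofolate, and 5914 for *SHM2*, the cytosolic serine hydroxymethyltransferase. *ADE13* followed with 4660.2 per kilobase, and *ADE4* was lowest with 1110.4. In the deletion *ADE4* stood at 2486 per kilobase, above *ADE2* (1940.0), *ADE5,7* (2228) and *ADE6* (2248). Reads assigned to the 10 genes were 0.203 to 0.256% of all reads in the *MED15* libraries; deletion replicates 1 and 2 gave 0.348 and 0.282%. Normalized counts add up to less per library in the deletion (20.9 and 20.8 M) than with *MED15* (25.9 to 29.5 M). A share of reads and a normalized count are therefore different scales. In normalized counts the 10 genes summed to 72593 and 58580 in the deletion, the second within the *MED15* range of 56724 to 68482.

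**Figure D2:**
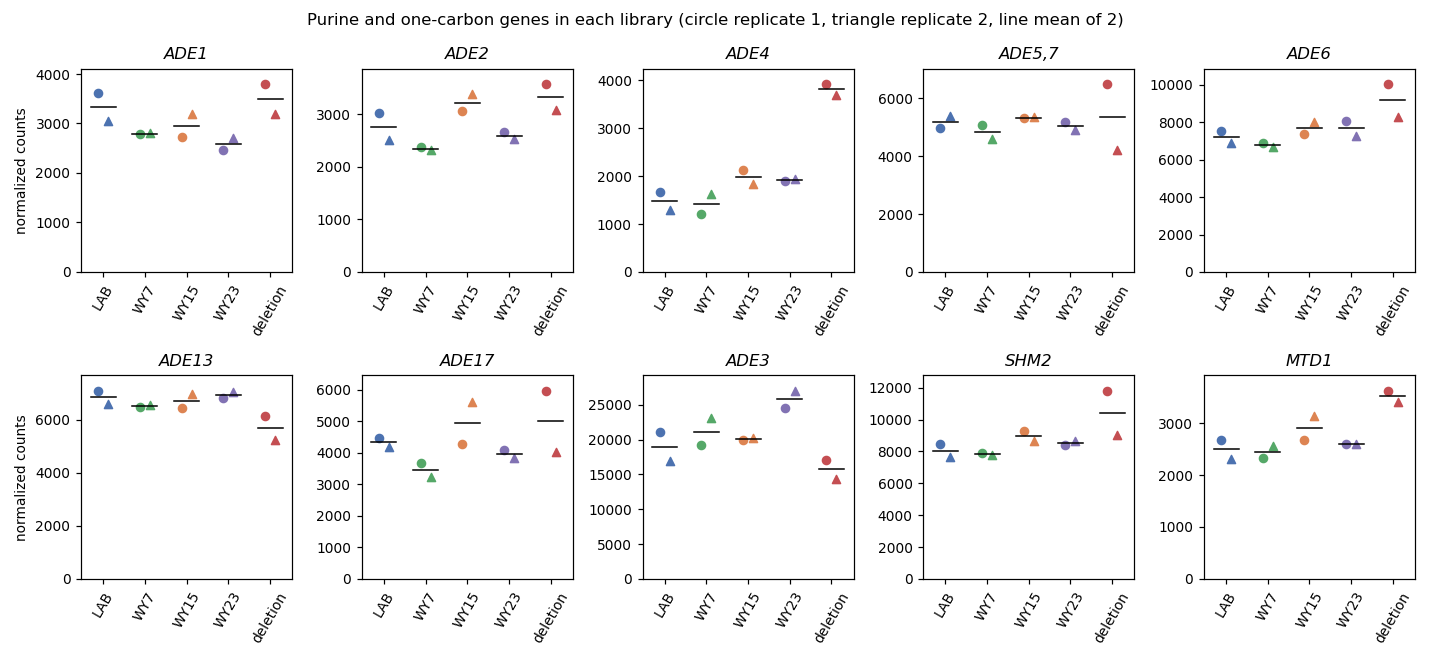
Normalized counts (vertical axes, from 0) of each gene in the 10 libraries, with circles for replicate 1, triangles for replicate 2 and a line at the mean of the 2. Both deletion libraries of *ADE4* (3929 and 3693) lie above all 8 other libraries, whose highest value is 2127.

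The first question is which of these genes differ when *MED15* is absent. *ADE4* rose in the deletion against each *MED15* strain, by 1.93- to 2.70-fold, and *MTD1* rose by a smaller amount against 3 of the 4 strains. *ADE2*, *ADE6*, *SHM2*, *ADE1* and *ADE3* passed against 1 or 2 strains, and *ADE5,7*, *ADE13* and *ADE17* against none. Against LAB 2 of the 10 genes passed the test, both higher; of all 6065 genes tested 36.6% were called, 18.9% higher and 17.7% lower. Against WY7 5 genes rose and 0 fell, while 42.7% of all genes were called (22.1% higher, 20.6% lower). Against WY15 1 rose and 0 fell (36.1%; 18.7% and 17.5%), and against WY23 4 rose and 1 fell (41.3%; 21.8% and 19.5%). Set against the 4 *MED15* strains averaged, 5 rose, 2 fell and 3 did not pass; 49.9% of all genes were called, 25.6% higher and 24.3% lower. The median log2 change of the 10 genes was 0.23 against LAB and 0.28 against the mean, with medians over all tested genes of 0.00 and -0.01. Changes are log2(normalized count + 1) with the standard error (SE) of limma, adjusted over all tested genes by Benjamini-Hochberg, and a gene is called at an adjusted p under 0.05. These comparisons share the deletion libraries, so they are not independent.

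*ADE4* encodes PRPP amidotransferase. Its normalized counts were 1670.1 and 1295 for LAB, 1215 and 1634 for WY7, 2127 and 1836 for WY15, 1892 and 1948 for WY23 and, for the deletion, 3929 and 3693. The deletion libraries do not overlap any other, while the *MED15* strains overlap in part, LAB and WY7 being lowest. The log2 change against LAB was 1.37 (SE 0.17, adjusted p = 0.000677 by limma), a 2.59-fold rise with a 95% interval of 1.98 to 3.38. Against WY7, WY15 and WY23 the changes were 1.43, 0.95 and 0.99 (adjusted p = 0.00039, 0.00356 and 0.00247 by limma). Leaving out any 1 of the 10 libraries kept the call against LAB, with log2 changes of 1.19 to 1.56. Both deletion libraries lay outside the range of the 8 *MED15* libraries for 4 of the 10 genes (*ADE4*, *ADE6* and *MTD1* above, *ADE13* below), against 51.9% of all tested genes (26.6% above, 25.3% below).

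The enzymes that follow Ade4 on the way to the imidazole ring differed less. *ADE5,7* encodes the bifunctional enzyme that acts at a pair of steps, and *ADE6* a large enzyme that acts between them. *ADE5,7* had 4957 and 5395 for LAB, 5069 and 4605 for WY7, 5314 and 5357 for WY15, 5189 and 4915 for WY23 and, for the deletion, 6507 and 4226. Its deletion libraries are the highest and the lowest of all 10, and the log2 change against LAB was 0.02 with a 95% interval of -0.39 to 0.43 (adjusted p = 0.941 by limma). *ADE6* had 7546 and 6870.2 for LAB, 6886 and 6702 for WY7, 7364 and 8019 for WY15, 8092 and 7246 for WY23 and, for the deletion, 10064 and 8265. Its log2 change was 0.34 against LAB (SE 0.12, adjusted p = 0.0587 by limma) and 0.32 against the averaged strains (adjusted p = 0.0253 by limma). That second call is lost without deletion replicate 1 (0.17, adjusted p = 0.268) and without WY23 replicate 2 (0.30, adjusted p = 0.0556).

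*ADE2* and *ADE1* encode the next enzymes, AIR carboxylase and SAICAR synthetase, whose loss is known for the red pigment of *ade* mutants. *ADE2* had 3015 and 2499 for LAB, 2369 and 2318 for WY7, 3053 and 3379 for WY15, 2649.9 and 2519 for WY23 and, for the deletion, 3578 and 3079.9. The deletion overlaps WY15, and the log2 changes were 0.27 against LAB (adjusted p = 0.105 by limma), 0.50 against WY7 (0.0104), 0.05 against WY15 (0.788) and 0.36 against WY23 (0.0404). The call against the mean of the *MED15* strains (0.30, adjusted p = 0.0299 by limma) was lost without any 1 of 4 libraries, the largest move being 0.19 (adjusted p = 0.264) without deletion replicate 1. *ADE1* had 3618 and 3053 for LAB, 2779 and 2808 for WY7, 2721 and 3188 for WY15, 2474 and 2698 for WY23 and, for the deletion, 3806 and 3187. Of the 4 strains it passed only against WY23, the lowest (log2 change 0.43, SE 0.13, adjusted p = 0.0298 by limma), and its value against LAB was 0.07 with a 95% interval of -0.23 to 0.37.

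Neither gene described next passed against any single strain. *ADE13* encodes adenylosuccinate lyase, which acts both in ring synthesis and in the branch to AMP. It had 7105 and 6585 for LAB, 6486 and 6542 for WY7, 6455 and 6993 for WY15, 6813 and 7044 for WY23 and, for the deletion, 6159.6 and 5258, the lowest pair. Its fall against the mean of the *MED15* strains was small (log2 change -0.25, SE 0.08, adjusted p = 0.0357 by limma) and was called in 4 of 10 runs that each left out 1 library; the values ranged from -0.36 without deletion replicate 1 to -0.13 without deletion replicate 2 (adjusted p = 0.34). *ADE17* encodes 1 of a pair of isoenzymes for the final steps to IMP. It had 4482 and 4178 for LAB, 3665 and 3237 for WY7, 4296 and 5617 for WY15, 4093 and 3828 for WY23 and, for the deletion, 5979 and 4029, so its deletion libraries differ by more than most strains do. It passed against none of the 4 strains, with log2 changes of 0.18, 0.51, 0.00 and 0.31 against LAB, WY7, WY15 and WY23 in limma, where its lowest adjusted p was 0.0656.

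Of the one-carbon genes *MTD1* and *SHM2* rose and *ADE3* fell against the averaged strains on the deposited scale, the *ADE3* fall being lost on both other scales. *MTD1* encodes the NAD-dependent methylenetetrahydrofolate dehydrogenase of the cytosol. It had 2682 and 2310.2 for LAB, 2328 and 2563 for WY7, 2668 and 3131 for WY15, 2608 and 2602 for WY23 and, for the deletion, 3631 and 3411, without overlap. Its log2 changes were 0.50 against LAB (SE 0.11, adjusted p = 0.0102 by limma), 0.53 against WY7 (0.00683), 0.28 against WY15 (0.0837) and 0.43 against WY23 (0.0168). The call against LAB is lost without LAB replicate 2 (0.39, adjusted p = 0.062) and without deletion replicate 1 (0.45, adjusted p = 0.0594).

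*SHM2* makes glycine and a one-carbon unit from serine. It had 8444 and 7662 for LAB, 7874 and 7753 for WY7, 9291 and 8649 for WY15, 8404 and 8635 for WY23 and, for the deletion, 11829 and 9037, where the lower library overlaps WY15. It passed against WY7 (log2 change 0.40, adjusted p = 0.0394 by limma) but not against LAB (0.36, adjusted p = 0.0642 by limma), and the call against the mean of the *MED15* strains (0.31, adjusted p = 0.037) held in 4 of 10 runs that each left out 1 library. Without deletion replicate 1 that change was 0.12 (adjusted p = 0.408). *ADE3* had 21136 and 16878 for LAB, 19224 and 23039 for WY7, 19915 and 20204 for WY15, 24528 and 27047 for WY23 and, for the deletion, 17111 and 14395. WY23 is the highest pair and the deletion the lowest mean, and the fall passed against WY23 (log2 change -0.71, SE 0.16, adjusted p = 0.00825 by limma) and against the mean (-0.44, adjusted p = 0.0194), but not against LAB (-0.27, adjusted p = 0.217). The call against the mean is lost without deletion replicate 2 (-0.32, adjusted p = 0.189).

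**Figure D3:**
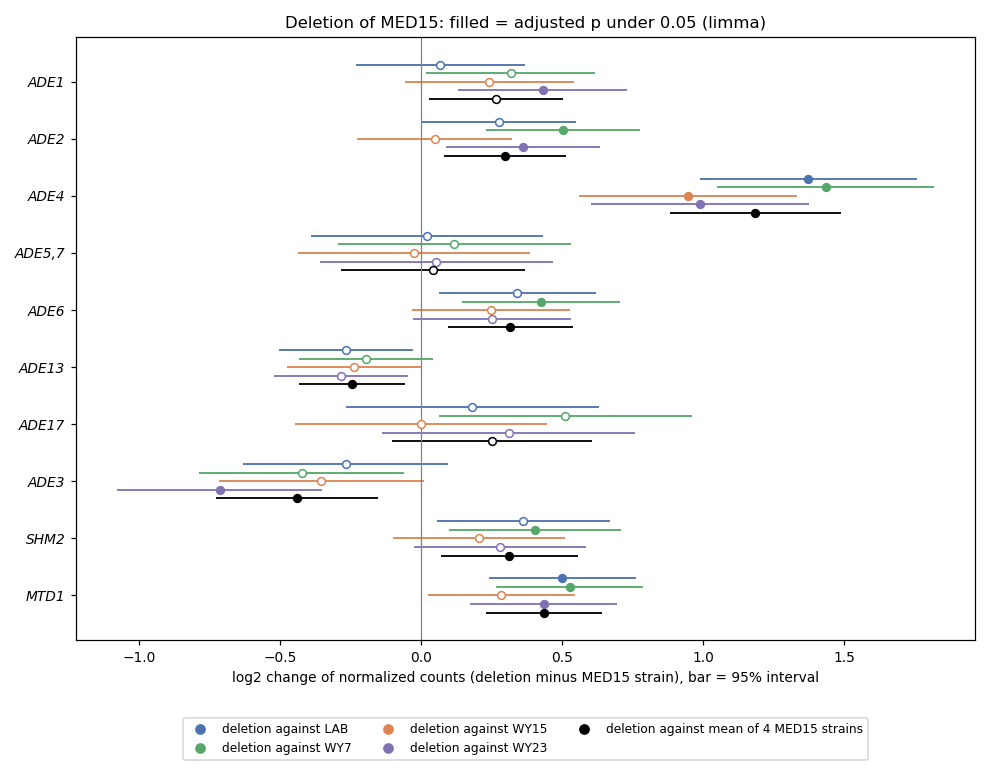
Log2 change of each gene in the deletion against each *MED15* strain and against their mean (horizontal axis), with 95% intervals as bars and filled symbols for an adjusted p under 0.05 by limma. All 5 *ADE4* values lie between 0.95 and 1.43 and are filled; the others lie between -0.71 and 0.53.

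The directions of *ADE3* and *ADE13* depend on the scale. When libraries are brought to equal sums, the median of all tested genes moves to 0.36 against LAB, and 6 of the 10 genes are called higher and 0 lower (of all genes 54.3% are called, 47.3% higher and 7.01% lower). On that scale *ADE3* is at 0.0926 and *ADE13* at 0.0943 against LAB, below the median of all genes, and neither is called. With equal sums 8, 6 and 8 genes are called against WY7, WY15 and WY23, beside 66.2, 50 and 62.9% of all genes. For the averaged strains it is 8 (68.8%), all 8 higher and 0 lower, in place of 5 and 2. Under quantile normalization, which leaves that median at 0.00, 4 genes are called higher and 0 lower (39.2% of all genes, 20.1% and 19.1%). *ADE3* is then at 0.26 and *ADE13* at -0.12. The median stays in place on that scale while single genes move, and whether the moves follow abundance was not tested. *ADE4* (1.43) and *MTD1* (0.56) stay called, and *ADE6* (0.64, adjusted p = 0.0109 by limma) and *SHM2* (0.71, adjusted p = 0.01) are added. Quantile normalization calls 6 genes against WY7 (42.5% of all genes), 3 against WY15 (38.4%), 6 against WY23 (40.1%) and 6 for the averaged strains (50.6%), all of them higher. DESeq2 on the recovered reads calls 4 against LAB, *ADE4*, *ADE6*, *SHM2* and *MTD1*, all higher (41.5% of all genes, 21.5% higher and 20.1% lower).

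**Figure D4:**
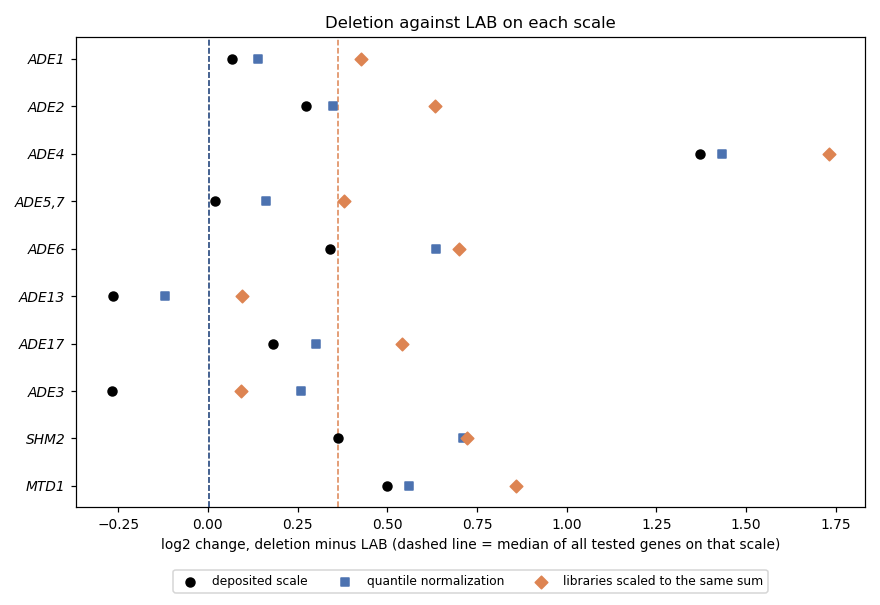
Log2 change of each gene in the deletion against LAB (horizontal axis) on the deposited scale, under quantile normalization and with libraries scaled to the same sum; dashed lines mark the median of all tested genes on each scale. *ADE4* lies at 1.37, 1.43 and 1.73, and *ADE3* crosses 0 between the scales, from -0.27 to 0.26.

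Replicates of the deletion, LAB and WY15 differed in most of these genes in 1 direction, and those of WY7 and WY23 did not. In the deletion all 10 genes were higher in replicate 1 than in replicate 2, by a log2 of 0.09 to 0.62 (median 0.25), while 51.0% of all tested genes were higher in replicate 1. In LAB 9 of the 10 were higher in replicate 1 (median 0.18; 48.5% of all genes). In WY15 8 of 10 were higher in replicate 2, with a median of -0.12 for replicate 1 minus replicate 2 (49.5% of all genes higher in replicate 1). WY7 and WY23 had 5 genes in each direction. The list of 14 low-oxygen genes, among them the cell wall gene *DAN1*, moved the other way in the LAB and WY15 pairs. Its median log2 difference of replicate 1 minus replicate 2 was -1.14 in LAB, 1.58 in WY15 and -0.22 in the deletion. That median was -0.37 in WY7 and 0.03 in WY23, where the 10 genes were split evenly. The part of this list in the differences among the 10 genes was not tested. With LAB replicate 1 and WY15 replicate 2 left out, a choice made after seeing these data, *ADE4* is at 1.56 against LAB and 3 of 10 genes are called, all higher (41.2% of all genes, 20.9% higher and 20.3% lower). Then 8 are called for WY7 (53.2%), 2 for WY15 (42.9%) and 8 for the 4 strains averaged (58.9%).

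Over all 10 libraries the 10 genes were not uniform in pattern. Of 45 pairs of genes 23 had a Pearson r above 0.5 on the log2 scale and 14 had a negative one, with a median of 0.53. The lowest value joined *ADE4* and *ADE13* (-0.65), and that of *ADE1* and *ADE3* was -0.55. These are descriptions over 10 libraries of 5 strains, in which the deletion pair carries much of the range. The genes most like the mean of the 10 were *MET8* (r = 0.89), *HPR1* (0.89), *GCV1* (0.89), *LCB5* (0.89), *XRS2* (0.88), *SLM5* (0.88), *CAR1* (0.87) and *SNP1* (0.87), chosen among 5122 named genes with a mean of at least 50. Over the 8 *MED15* libraries alone their r was 0.67 to 0.96.

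The second question is whether the *MED15* alleles differ from each other in these genes. None of the 10 genes passed in any of the 6 comparisons between 2 alleles or in the test for any difference among the 4, and the same holds for all 6065 genes (0% called by limma). At an unadjusted p under 0.05 limma marks 0 of the 10 genes for WY7 against LAB, 1 for WY15 against LAB (*ADE4*), 2 for WY23 against LAB (*ADE1* and *ADE3*), 3 for WY7 against WY15 (*ADE2*, *ADE4* and *ADE17*), 1 for WY7 against WY23 (*ADE4*), 1 for WY15 against WY23 (*ADE2*) and 2 for any difference among the 4 (*ADE2* and *ADE4*). Of all genes 4.7, 5.77, 9.23, 11.7, 5.28, 6.73 and 8.1% pass that looser rule in the same 7 comparisons, in that order. edgeR on the recovered reads calls 0 of the 10, and 0% of all genes, in all 7. DESeq2 calls *ADE2* as lower in WY7 than in WY15 (log2 change -0.46, adjusted p = 0.048) beside 2.56% of all genes, and none of the 10 elsewhere, where it calls 0.135% (WY7 against LAB), 0.179% (WY15 against LAB), 3.72% (WY23 against LAB), 0.181% (WY7 against WY23), 2.57% (WY15 against WY23) and 2.61% (any difference) of the genes it adjusts. It gives no adjusted p to 4 of the 10 genes for WY23 against LAB and for WY15 against WY23.

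The lowest adjusted p of limma among the alleles belongs to the same *ADE2* pair (log2 change -0.45, 95% interval -0.73 to -0.18, adjusted p = 0.253). For *ADE4* the order of the means was WY7, LAB, WY23 and WY15, with WY15 above LAB by 0.43 (95% interval 0.04 to 0.81, adjusted p = 0.86 by limma). *ADE3* ran LAB, WY15, WY7 and WY23, with WY23 above LAB by 0.45 (95% interval 0.08 to 0.81, adjusted p = 0.527 by limma). WY7 had the lowest mean of the 4 for 8 of the 10 genes (not *ADE1* and *ADE3*). That share was not counted over all genes, so it cannot be read as a trait of WY7. No neighbours in these orders passed the test. The intervals differ by gene: over the 6 comparisons those of *ADE13* reach from -0.33 to 0.26, and those of *ADE17*, the widest, from -0.96 to 0.76.

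**Figure D5:**
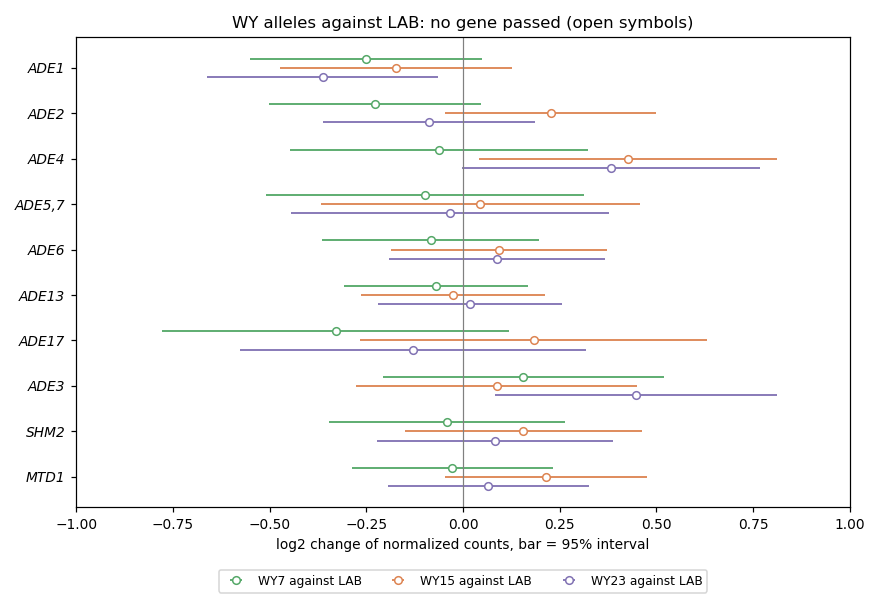
Log2 change of each gene in WY7, WY15 and WY23 against LAB (horizontal axis) with 95% intervals as bars. No gene passed an adjusted p under 0.05 by limma, and most intervals cross 0.

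The neighbouring steps of purine metabolism are given by list. Each count against LAB is to be read against the share of all tested genes called on its own scale. That share is 36.6% on the deposited scale (18.9% higher, 17.7% lower). With equal sums it is 54.3% (47.3% higher, 7.01% lower), and under quantile normalization 39.2% (20.1% higher, 19.1% lower). No test compared the lists with each other or with the 10 genes. Of 16 salvage and uptake genes 2 rose and 5 fell in the deletion against LAB, with a list median of -0.25; with equal sums 6 are called higher and 4 lower, and under quantile normalization 3 and 5. *FCY2*, the purine and cytosine permease gene, had 49512 and 43754 in LAB and 17525 and 15230.5 in the deletion (log2 change -1.51, SE 0.18, adjusted p = 0.000674 by limma). *FCY21*, a gene of the same family, had 1147 and 1462 in LAB and 5061 and 4468 in the deletion (1.88, adjusted p = 0.000267), and its relative *FCY22* fell by 0.86 (adjusted p = 0.000316) on the log2 scale. *AAH1*, the adenine deaminase gene, fell from 7073 and 12974 to 2883 and 2749 (log2 change -1.77, adjusted p = 0.0134 by limma). Relative to the averaged strains *FUN26*, a nucleoside transporter gene, fell by 0.89 (adjusted p = 3.44e-05). The first 4 calls and directions against LAB hold on both other scales.

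The rest of ring synthesis and PRPP supply had 1 of 8 genes lower, the PRPP synthetase gene *PRS2* (log2 change -0.29, adjusted p = 0.0311 by limma), a call lost on both other scales. *ADE8*, the remaining gene of the path to IMP with *ADE16*, was at -0.11 (adjusted p = 0.544), *ADE16*, the isoenzyme of *ADE17*, at -0.31 (0.0752), and *ADE12*, which starts the AMP branch, at -0.43 (0.0745). Against the mean of the *MED15* strains *PRS5*, another PRPP synthetase gene, fell by 0.27 (adjusted p = 0.0192), *ADE16* by 0.27 (adjusted p = 0.0437 by limma) and *ADE12* by 0.48 (adjusted p = 0.0162), none of them called on the other scales. *ADE16* turns positive there, at 0.14 with equal sums and 0.12 under quantile normalization, and *PRS5* is at 0.14 and -0.17. Against LAB with equal sums, 2 of the 8 genes were called higher and 0 lower. These were *PRS1* (0.43, adjusted p = 0.0252 by limma) and *PRS4* (0.67, adjusted p = 0.0039 by limma), further PRPP synthetase genes. None of 5 genes of the GTP branch passed against LAB by limma on the deposited scale; with equal sums *IMD2*, an IMP dehydrogenase gene (1.58, adjusted p = 0.0141), and the guanylate kinase gene *GUK1* (0.57, adjusted p = 0.00187) are called higher. *IMD2* had 2131 and 826 in the deletion and 479 and 674 in LAB, so its deletion libraries lie far apart. On the deposited scale it was at 1.22 against LAB (adjusted p = 0.0684) and rose against the mean by 1.63 (SE 0.36, adjusted p = 0.00636).

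Of 15 other one-carbon and folate genes 3 rose and 1 fell against LAB; with equal sums the count is 7 and 1, and under quantile normalization 5 and 1. *CDC21*, the thymidylate synthase gene, had 259.6 and 205 in LAB and 621 and 662 in the deletion (log2 change 1.47, adjusted p = 0.000452 by limma). The glycine cleavage genes *GCV1* and *GCV2* rose by 0.74 (adjusted p = 0.0297 by limma) and 0.62 (0.0263). *GCV3* (0.35, adjusted p = 0.0588 by limma) and *LPD1* (-0.09, 0.635), of the same complex, did not pass. With equal sums *GCV3* is called at 0.71 and *LPD1* (0.27) is not. *MET13*, a methylenetetrahydrofolate reductase gene, fell by 0.90 (adjusted p = 0.00398 by limma) on the deposited scale. *SHM1*, the mitochondrial partner of *SHM2*, was at 0.15 (adjusted p = 0.271), called on both other scales at 0.51 and 0.43, and *MIS1*, the mitochondrial partner of *ADE3*, was at -0.03 (0.961). Of 6 serine and glycine genes 3 rose and 2 fell. *AGX1*, the alanine:glyoxylate aminotransferase gene that makes glycine, rose by 1.58 (adjusted p = 0.000405 by limma), *SER2* by 0.92 (0.00242) and *SER3* by 0.60 (0.0185). The threonine aldolase gene *GLY1* fell by 0.79 (adjusted p = 0.0167 by limma) and *SER33* by 0.60 (0.0129). With libraries scaled to the same sum *GLY1* (-0.43) and *SER33* (-0.24) are not called, while *SER3* (0.96) is. Under quantile normalization *GLY1* (-0.31) is not called.

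Among the regulators *BAS1* had 7042 and 6503 for LAB, 6726 and 7255 for WY7, 7099.6 and 6510.2 for WY15, 6860.2 and 6853 for WY23 and, for the deletion, 5763 and 4946. Its log2 change of -0.34 against LAB passed on the deposited scale (SE 0.11, adjusted p = 0.0364 by limma) but not with equal sums (0.02) or under quantile normalization (-0.21). *PHO2*, its partner, was at -0.34 (adjusted p = 0.051), and *GCN4* at -0.10 (adjusted p = 0.632). The *GCN4* value becomes 0.26 with equal sums, not called, and 1.07 under quantile normalization, called. Its normalized counts were 34542 and 41254 in LAB and 35289 and 35088 in the deletion, so that rise exists on the quantile scale only. *FCY2*, also abundant, moved up on that scale too, from -1.51 to -0.84. Whether such moves follow abundance was not tested. Of 4 genes of the histidine branch, which releases the purine intermediate AICAR, *HIS4* fell by 1.55 (SE 0.22, adjusted p = 0.00133 by limma) and the other 3 did not pass. With equal sums *HIS6* (0.58, adjusted p = 0.00253) and *HIS7* (0.53, adjusted p = 0.0432) are called higher.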

How the data were processed

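Polyadenylated RNA was sequenced from 10 libraries as paired reads on a shared lane after a stranded preparation, per the labels' protocols; no batch is named. The signal that the authors deposited for each gene and library is its read count divided by a size factor. Their processing notes list Trim Galore, then Bowtie2, featureCounts and also DESeq2, with sacCer3 and R64; versions, settings and use of the strand were not found in the sources used here. All values are whole multiples of 1 step per library (100% within 1e-06), which returns the reads, 967 to 24882 per library for the 10 genes.

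Genes with a mean of at least 10 (6065) were fitted on log2(value + 1) by limma (version 3.58.1, R 4.3.3) with 1 mean per strain and a variance trend; there were 5 residual degrees of freedom, and 3.05 came from the prior. Tests are two-sided with Benjamini-Hochberg adjustment. Alternatives were edgeR 4.0.16 and DESeq2 1.42.0 on the recovered reads, 2 other scales, a pseudocount of 10, no filter, a replicate block and left-out libraries; the fits were tested on simulated data. Names, positions and sequences come from the RefSeq R64 annotation and genome. The 10 genes have 1 exon each, overlap 0 annotated genes and have 0 copies at 97% identity over 150 bp (BLAST+ 2.17.0).

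The 10 genes and the other lists were chosen with earlier results of these data known. From each other list at most 4 called genes with the strongest changes are named per comparison (LAB, and the averaged strains), besides 8 genes named whatever their values: *BAS1*, *PHO2*, *GCN4*, *ADE8*, *ADE12*, *ADE16*, *SHM1* and *MIS1*. *SER3*, *GCV3* and *LPD1* are named beside related genes, and some others for a call on another scale or for the hexamer. The genes most like the 10 were the 8 with the highest r.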

Additional observations from a re-analysis of the deposited data

How the results depend on the processing

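The *ADE4* rise was called in every alternative tried, 19 against LAB (log2 1.19 to 1.73) and 18 against the averaged strains (1.13 to 1.60). *MTD1* was called in 17 of 19 and 17 of 18. The counts of called genes moved more. Against LAB, 2 in the analysis reported, they were 4 with DESeq2, 6 with equal sums and 4 under quantile normalization. Against WY7 (5) they were 8 with equal sums. Against WY15 (1) they were 6 with equal sums and 3 under quantile normalization. Against WY23 (5) they were 8 with equal sums. For the averaged strains (7, 5 higher and 2 lower) they were 8 higher and 0 lower with equal sums. Under quantile normalization they were 6 and 0 there, with 6 for WY7 and 6 higher, 0 lower for WY23. The shares of all genes called on these scales are given above. In each of these comparisons the count also moved when 1 library was left out. Those counts are not given, because the share of all genes was not kept for those runs. For WY7 against WY15 DESeq2 calls 1 gene. The cause of these moves was not tested.

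Signs turned for 5 of the 10 genes. Against LAB they did so with equal sums for *ADE13* (0.0943) and *ADE3* (0.0926), under quantile normalization for *ADE3* (0.26), and with LAB replicate 1 and WY15 replicate 2 left out for *ADE5,7* (-0.041). Against the mean they did so with equal sums for *ADE13* (0.16) and under quantile normalization for *ADE3* (0.16). With 1 library left out, *ADE1* ranged from -0.0606 to 0.195 against LAB, *ADE5,7* from -0.29 to 0.33 and *ADE17* from -0.10 to 0.47; against the mean *ADE5,7* ranged from -0.27 to 0.35 and *ADE17* from -0.0344 to 0.535. Where 1 library was left out, the lone library of its strain was assumed to vary like the other strains.

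Replicate 1 minus replicate 2 was correlated across genes for each of 10 strain pairs, giving r between -0.50 and 0.41. The 3 values over 0.1 are those among WY7, WY23 and the deletion (0.41, 0.27 and 0.26). LAB had a negative r with every other strain. Replicate numbers thus do not pair all the strains, but a replicate effect shared by WY7, WY23 and the deletion was not tested. With a replicate block the *ADE13* call against the mean is lost (adjusted p = 0.0518 by limma), and the counts of the other comparisons stay as they were. The share of all genes called with that block was not kept. A fit with only the strains compared is the same fit for the mean and was not run there. Each of the 10 genes has at least 967 reads per library; counting error and the spread between replicates were not compared.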

Other observations

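Genes outside the 10 that hold TGACTC on either strand in the 300 bases before the start codon number 446 among those tested. In the deletion against LAB 81 of them rose (18.2%) and 89 fell (20.0%), with a median log2 change of -0.01, beside 18.4% and 18.1% of all tested genes with a window. Against the mean of the *MED15* strains 92 rose (20.6%) and 128 fell (28.7%), with a median of -0.04, beside 25% and 24.8%. *ADE8* holds 2 copies and *ADE12* 1. Of the glycine cleavage genes *GCV2* holds 4, *GCV3* and *LPD1* 2 each and *GCV1* 1. That complex breaks down glycine to a one-carbon unit. Listed genes with a copy went both ways against LAB on the deposited scale. *GCV1*, *GCV2* and *SER2* (1 copy) were called higher. *HIS4* (3 copies), *HIS3* (2, listed with the selection markers), *MET13*, *SER33* and *XPT1* (1 each) were called lower. These counts were made after the expression values were seen and carry no test.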
